A study of Homo sapiens with 15 samples.

Results

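The 50 mitosis and kinetochore genes described here were taken by name from the 55773 gene names in a table of ribosome profiling values, and all 50 were found there. Ribosome profiling sequences the short stretches of mRNA that ribosomes protect from a nuclease, so a gene's value follows both its mRNA level and how heavily that mRNA is translated. The matched RNA libraries that would separate these were not analysed here. The cells were HEK293, an established human embryonic kidney line, in 15 libraries that formed 5 groups of 3. In 2 groups an inducible Flp-In T-REx 293 line expressed Flag/HA-tagged ZC3H7A or Flag/HA-tagged ZC3H7B, and a Flag/HA line with neither protein served as their control. All 3 of these groups received doxycycline, at 1 µg/mL for 24 h in the protocol. The remaining groups were cells labelled ZC3H7A/B-DD, with the genotype ZC3H7A knockout plus a short hairpin RNA against ZC3H7B, and wild-type Parental cells with a control hairpin. Puromycin selection (5 µg/mL) was applied to both and lifted 2 passages before collection. These frozen cells were lysed with cycloheximide (100 µg/mL), which stalls ribosomes on mRNA, while the protocol names none in the hypotonic buffer of the Flag/HA lines. Whether each line is 1 clone is not given in the sources used here. The labels describe the Flag/HA replicates as independent, but say nothing of the other 6 libraries, whose p-values may then measure technical spread.

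Mitosis begins when cyclin-dependent kinase 1, bound to its cyclins, becomes active, chromosomes are compacted by condensin and sister chromatids stay joined by cohesin. Microtubules of the spindle attach to each chromosome at the kinetochore, and the spindle assembly checkpoint holds cells in metaphase until all are attached. The anaphase-promoting complex then marks cyclin B and securin for destruction, which frees separase to cut cohesin, and cytokinesis divides the cell. HEK293 cells divide continuously, and most of these genes are read mainly late in the cell cycle. In bulk libraries, fewer dividing cells and less RNA or translation per cell cannot be told apart.

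Libraries held 24703005 to 25922138 reads with ZC3H7A, 22661812 to 25939425 with ZC3H7B and 28261810 to 29515572 in the control. The libraries labelled ZC3H7A/B-DD held 20777204 to 42680589 reads, and Parental libraries 32955833 to 39064072. ZC3H7A stood at 37858, 37598 and 38675 normalized counts in its overexpressing line, against 6509, 6526 and 6607 in the control. ZC3H7B stood at 27538, 27182 and 28936 in its own overexpressing line, against 2230.5, 2137 and 2089 in the control. The label of the fourth group was not borne out by its targets: ZC3H7A was at 7116, 1890.3 and 5066 in the libraries labelled ZC3H7A/B-DD, against 1885, 1819.9 and 2311 in Parental. ZC3H7B was at 3948, 2399 and 2969 there, against 2479, 2321 and 2609 in Parental. Directions drawn from these libraries are therefore directions between labels. Parental replicate 3 also stood apart, with a chi-square of 87.9 and 64.6 for each degree of freedom against replicates 1 and 2, where those 2 gave 8.72 and counting error alone would give about 1. HEK293 markers were present in every group, at a mean of 20 or more normalized counts for 7 of 7, although NEFM was close to that limit at 21.96 to 26.27. Levels differed between lines. KRT8 averaged 208.64 in the libraries labelled ZC3H7A/B-DD and 1098.22 in Parental, and VIM 41677 and 21922. The 8 blood cell markers summed to 260.8 to 334.8 with ZC3H7A, 338.8 to 453.4 with ZC3H7B and 612.2 to 802.6 in the control, most of it HBB, with PTPRC at 3.77 or less in these libraries. The 8 fibroblast markers summed to 415.4 to 526.1 in the libraries labelled ZC3H7A/B-DD and 611.1 to 794.4 in Parental, with DCN at 5.24 or less. Their part in the results was not tested.

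The 50 genes took 1.57% ± 0.0299 of all reads with ZC3H7A, 1.67% ± 0.0221 with ZC3H7B and 1.63% ± 0.0149 in the control (SD, n = 3 each). They took 1.47% ± 0.102 in the libraries labelled ZC3H7A/B-DD and 1.18% ± 0.167 in Parental. Per kilobase of coding sequence, CDK1, the kinase that drives entry into mitosis, had the highest level in every group. It averaged 20743 ± 1312 normalized counts per kilobase with ZC3H7A, 19257 ± 1426 with ZC3H7B and 23857 ± 221 in the control. CCNB1, the cyclin B1 partner of that kinase, came next in every group, at 18682 ± 911 per kilobase with ZC3H7A, 17366 ± 1095 with ZC3H7B and 16865 ± 618 in the control. Lowest in its group was SGOL1, the protector of centromeric cohesin, with 969 ± 66.1 per kilobase in ZC3H7A cells, and BIRC5 with 563 ± 100.1 in the control. Every member was covered by at least 188 reads in every library, the lowest being BIRC5 in control replicate 1. Coding exons of 13 members overlap another annotated gene, 10 of them on the opposite strand alone, and whether reads were counted by strand is not given in the sources used here. Near copies of members were low, with PTTG3P at 1.97% of the PTTG1 value at most and KIF4B at 1.33% of KIF4A.

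**Figure D1:**
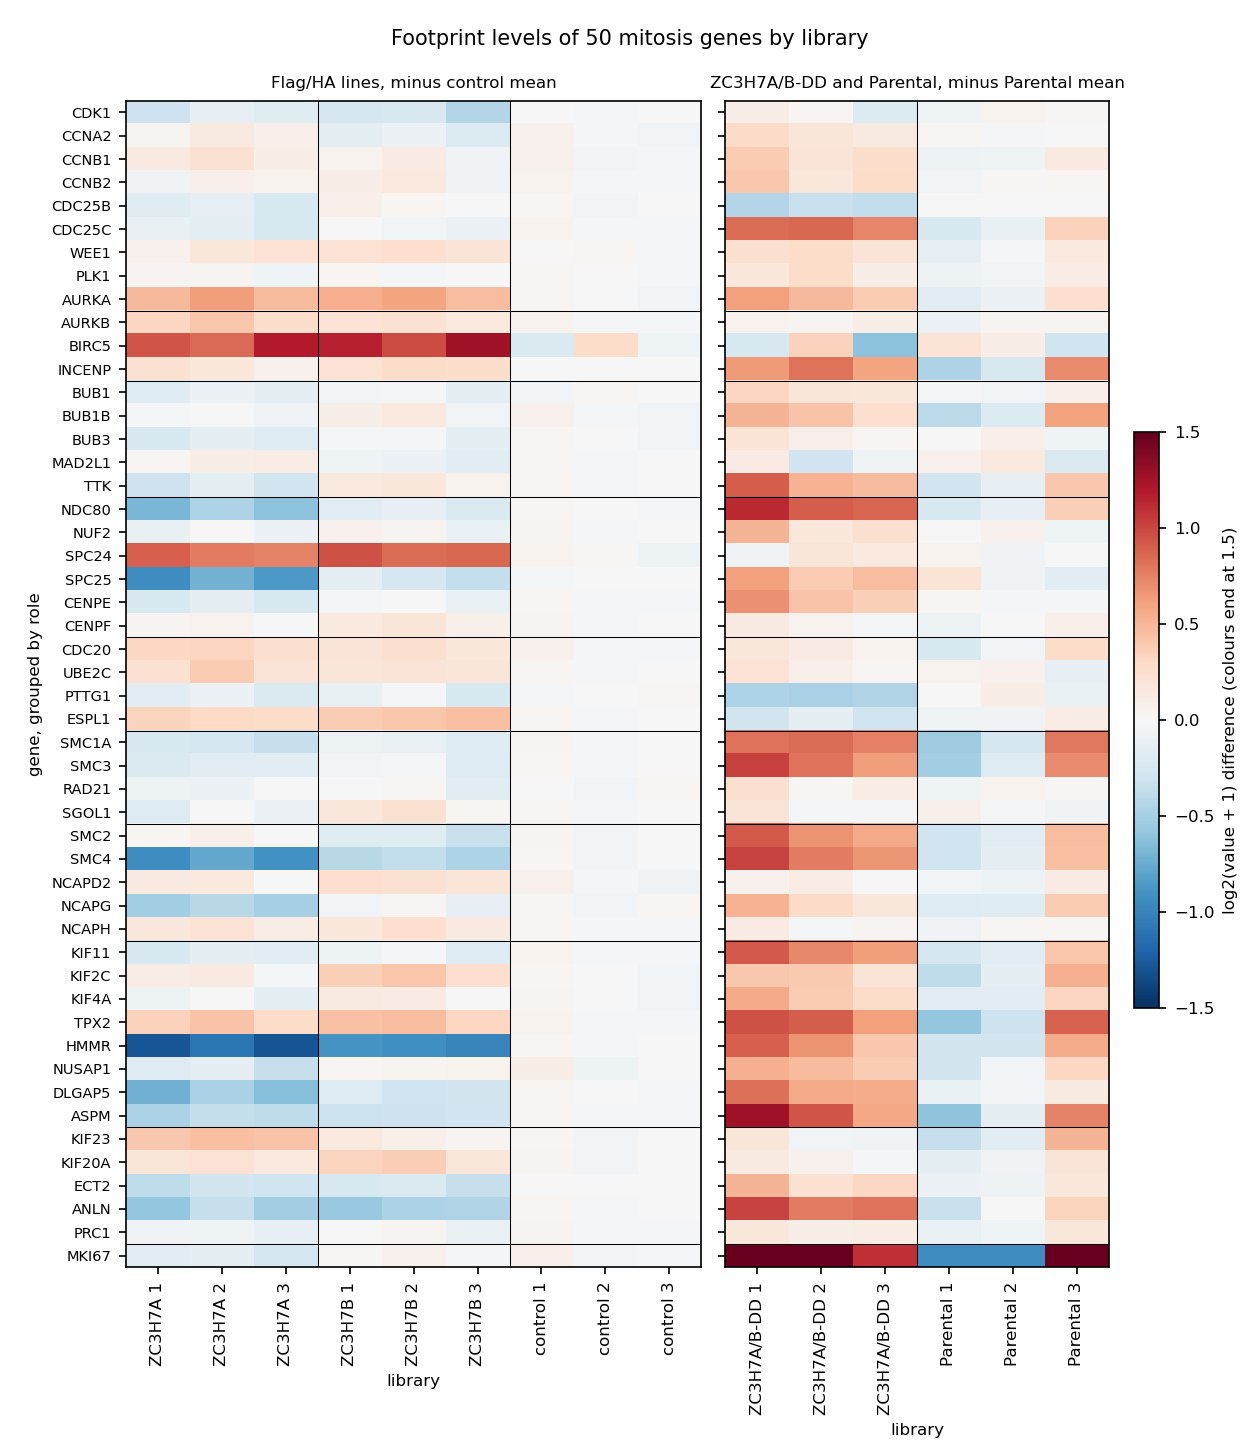
Each row is 1 gene and each column 1 library, with 9 Flag/HA libraries on the left and 6 others on the right. Colour gives the log2 of normalized count plus 1, minus that gene's mean in a reference group. The reference is the Flag/HA control on the left and Parental on the right. HMMR, SMC4 and SPC25 are lower in all 3 ZC3H7A libraries than in the control libraries, BIRC5 and SPC24 are higher, and Parental replicate 3 is above Parental 1 and 2 for 35 of 50 genes.

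The mitotic genes changed in both directions in the ZC3H7A line, as did all genes tested. In ZC3H7A cells 14 of the 50 rose and 22 fell relative to the control, while 14 did not pass the test (limma adjusted p under 0.05 over all genes). Of all 15599 genes tested 57.5% were called, with 29.2% higher and 28.2% lower, so 36 of 50 members is read against that share. The median log2 change was -0.07 over the members and 0.02 over all genes. Called members had a median size of 0.27 on the log2 scale, against 0.46 for all called genes. Here and in the later comparisons, members and all genes were not matched for read depth. A smaller SE lets a smaller change pass. The SE was 0.045 for BUB1, called at -0.13, and 0.113 for BIRC5, the member with the fewest reads. Whether the shares called and the sizes differ from those of genes of similar depth was not tested. All 3 ZC3H7A libraries lay above or below all 3 control libraries for 38 members, where 63.9% of all genes did so. Log2 changes here are of normalized count plus 1. The split of calls moves with scaling, to 20 higher and 19 lower when libraries are scaled by total reads and to 23 and 18 with quantile scaling, both of which ended the calls of BUB1 and PTTG1.

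**Figure D2:**
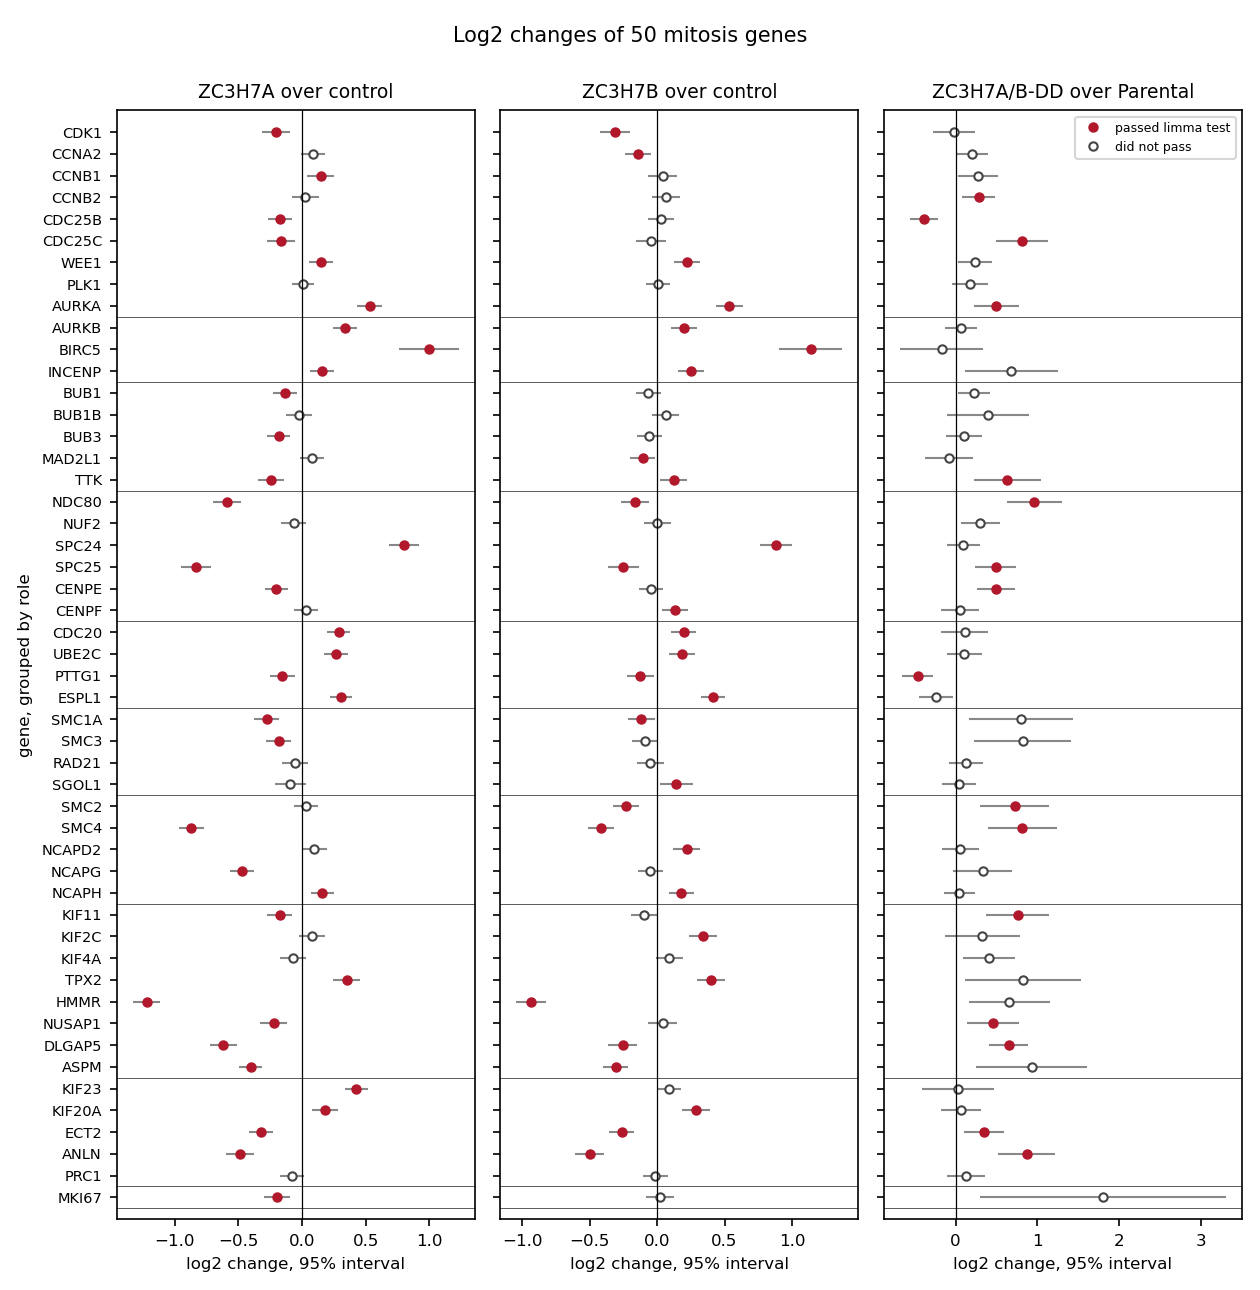
Points are log2 changes of normalized count plus 1 for each of the 50 genes, grouped by role, and bars are 95% intervals from limma; filled points passed the test. With ZC3H7A 14 genes were higher and 22 lower, with ZC3H7B 17 and 14, and in the libraries labelled ZC3H7A/B-DD against Parental 14 and 2.

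Among the kinases, cyclins and phosphatases of mitotic entry, 3 of 9 rose and 3 fell with ZC3H7A. This is close to the shares of all genes, of which 29.2% rose and 28.2% fell. AURKA, the kinase of spindle poles, had 4619.6, 5075 and 4578 normalized counts in ZC3H7A libraries and 3358, 3302 and 3209 in control libraries. The groups did not overlap, and AURKA rose by 0.53 ± 0.05 on the log2 scale (SE, limma adjusted p = 2.85e-09). CDK1 stood at 17197, 19484 and 18765 in ZC3H7A libraries, against 21344, 21031 and 21394 in control libraries, without overlap, a log2 change of -0.20 (limma adjusted p = 0.00216). CCNB1 was higher by 0.15 (limma adjusted p = 0.0166), a call that was lost without either control replicate 2, control replicate 3 or ZC3H7A replicate 2. PLK1, the kinase that acts with AURKA to trigger mitosis, had 7357, 7374 and 6874 in ZC3H7A libraries and 7315, 7106 and 7057 in control libraries. These overlapped, with a log2 change of 0.01 and a 95% interval of -0.08 to 0.10. The regulators of CDK1 lay on both sides. WEE1, the kinase that keeps CDK1 inactive, rose by 0.15 (limma adjusted p = 0.0088). The phosphatases CDC25B and CDC25C, which remove the same inhibitory phosphates, fell by 0.18 and 0.16, and CDC25C no longer passed when control replicate 1 or ZC3H7A replicate 3 was left out. The cyclins CCNA2 (0.08) and CCNB2 (0.03) did not pass.

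The chromosomal passenger complex was the only role in which every listed member rose with ZC3H7A, 3 of 3, where 29.2% of all genes rose. Its catalytic subunit AURKB corrects faulty attachments of chromosomes to the spindle, INCENP is its scaffold, and BIRC5, also called survivin, brings it to the centromere. BIRC5 had 533, 497 and 633 normalized counts in ZC3H7A libraries, against 238, 334 and 264 in control libraries. All 3 ZC3H7A values were well above all 3 control values, and the log2 change was 1.00 ± 0.11 (limma adjusted p = 7.1e-08), the highest rise among the members. AURKB stood at 5759, 6149 and 5527 with ZC3H7A and 4756, 4511 and 4514 in the control, again without overlap (log2 change 0.34, limma adjusted p = 1.46e-06). INCENP changed by 0.16 (limma adjusted p = 0.00618), a call lost without ZC3H7A replicate 1. A further 4 chromosomal passenger and shugoshin genes, counted below among the other mitotic genes, gave 2 rises and 1 fall with ZC3H7A.

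Of the 4 subunits of the Ndc80 complex, the rod at the outer kinetochore that grips microtubules, SPC24 rose, SPC25 and NDC80 fell and NUF2 did not pass with ZC3H7A. NDC80 and NUF2 form the microtubule-binding end, while SPC24 and SPC25 pair at the end that anchors the rod to the kinetochore. SPC25 had 2061, 2400.3 and 2162 normalized counts in ZC3H7A libraries and 3898, 3937 and 3956 in control libraries. Its partner SPC24 had 1829, 1677 and 1647 with ZC3H7A and 1023, 998 and 933 in the control. Neither pair of groups overlapped, and they lay in opposite directions. SPC25 had a log2 change of -0.83 ± 0.06 (limma adjusted p = 1.71e-11) and SPC24 one of 0.80 ± 0.06 (limma adjusted p = 5.56e-11). NDC80 stood at 3249.8, 3817 and 3409 with ZC3H7A, against 5343, 5235 and 5144 in the control, and fell by 0.59 (limma adjusted p = 1.15e-09). NUF2 had 4965, 5308 and 5049 with ZC3H7A and 5505, 5230.3 and 5301 in the control, which overlapped (log2 change -0.07, limma adjusted p = 0.254). Of the large coiled-coil proteins of the outer kinetochore, the motor CENPE had 9707, 10366 and 9682 with ZC3H7A and 11656, 11298 and 11275 in the control, and fell by 0.20 (limma adjusted p = 0.000362). CENPF, which links kinetochores to microtubules and dynein, did not pass (0.03).

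**Figure D3:**
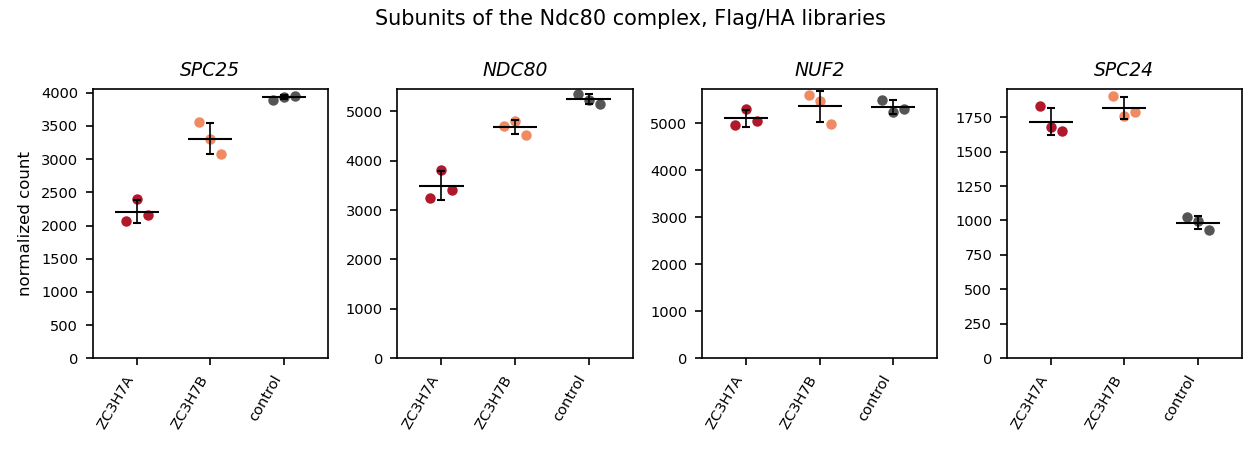
Normalized counts of the 4 Ndc80 complex subunits in the 9 Flag/HA libraries, points for libraries, bars for the mean ± SD, with each vertical axis starting at 0. SPC25 and NDC80 are lowest with ZC3H7A, NUF2 overlaps between groups, and SPC24 is higher in both overexpressing lines than in the control.

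The coding sequences of these subunits differ in the base that ends each codon, which is shown because the study's title names codon-dependent regulation. The first 50 codons of the longest GENCODE 29 coding sequence (GRCh38) are printed 5′ to 3′, with capitals for an A or T at the third position of a codon. HMMR, the member with the deepest fall with ZC3H7A, is given with them.
SPC25: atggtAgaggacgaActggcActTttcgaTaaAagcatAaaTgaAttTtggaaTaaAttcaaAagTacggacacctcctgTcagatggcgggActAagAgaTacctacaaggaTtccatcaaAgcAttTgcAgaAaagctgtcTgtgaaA
NDC80: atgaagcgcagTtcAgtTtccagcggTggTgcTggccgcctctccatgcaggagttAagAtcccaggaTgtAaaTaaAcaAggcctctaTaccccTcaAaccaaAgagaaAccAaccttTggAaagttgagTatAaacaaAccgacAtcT
NUF2: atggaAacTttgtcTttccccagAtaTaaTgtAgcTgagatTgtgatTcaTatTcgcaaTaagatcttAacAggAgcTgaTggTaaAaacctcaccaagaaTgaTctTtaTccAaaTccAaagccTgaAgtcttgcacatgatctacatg
SPC24: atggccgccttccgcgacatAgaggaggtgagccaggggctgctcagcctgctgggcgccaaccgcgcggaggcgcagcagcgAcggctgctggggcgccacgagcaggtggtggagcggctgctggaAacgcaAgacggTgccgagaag
HMMR: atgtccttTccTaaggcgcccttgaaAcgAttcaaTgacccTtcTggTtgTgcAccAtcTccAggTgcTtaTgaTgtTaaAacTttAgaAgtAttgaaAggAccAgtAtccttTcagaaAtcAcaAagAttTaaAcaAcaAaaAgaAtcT
SPC25 (chr2:168834132-168913371, minus strand), NDC80 (chr18:2571511-2616635, plus strand) and NUF2 (chr1:163266576-163355764, plus strand) ended 27, 26 and 29 of these 50 codons in A or T. SPC24 (chr19:11131520-11155808, minus strand) ended 5 of 50 so. HMMR (chr5:163460203-163491945, plus strand) ended 39 of 50 so. NUF2, which did not pass the test, was as rich in such codons as NDC80 and SPC25, which fell.

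None of the 5 checkpoint genes was called higher with ZC3H7A. Of these, BUB1, BUB3 and TTK fell, with log2 changes of -0.13, -0.18 and -0.24, and the BUB1 call was lost without any 1 of control replicate 2, control replicate 3 and ZC3H7A replicate 1. BUB1B and MAD2L1, which together with BUB3 and CDC20 form the inhibitor of the anaphase-promoting complex, did not pass, with changes of -0.02 and 0.08. Of the 4 genes that act once the checkpoint is met, 3 rose and 1 fell, where 29.2% of all genes rose and 28.2% fell. CDC20, the activator of the anaphase-promoting complex, had 6587, 6645 and 6276 in ZC3H7A libraries and 5562, 5194 and 5217 in control libraries. ESPL1, which encodes separase, had 6866, 6705 and 6619 with ZC3H7A and 5569.8, 5324 and 5461 in the control. Neither gene's groups overlapped. The log2 changes were 0.29 for CDC20 (limma adjusted p = 6.84e-06) and 0.30 for ESPL1 (limma adjusted p = 1.38e-06). The ubiquitin-conjugating enzyme UBE2C also rose (0.27), while PTTG1, the securin that holds separase inactive, fell (-0.15), a call lost without ZC3H7A replicate 3.

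In the condensin ring, which compacts chromosomes, 1 of 5 subunits rose with ZC3H7A and 2 fell. In cohesin, which holds sisters together, none of 4 genes rose and 2 fell. Of all genes tested, 29.2% rose and 28.2% fell. SMC4, one of the paired ATPase arms of condensin, had 11980.2, 13403 and 12184 normalized counts in ZC3H7A libraries, against 23382, 22298 and 22882 in control libraries. The groups were far apart, and SMC4 fell by 0.87 ± 0.05 (limma adjusted p = 3.64e-13). Its partner arm SMC2 had 11869, 12228 and 11569.6 with ZC3H7A and 12009, 11304 and 11594 in the control, which overlapped (log2 change 0.03, limma adjusted p = 0.593). NCAPG, a HEAT-repeat subunit of condensin I, fell by 0.47 (limma adjusted p = 4.69e-09), while NCAPH, the kleisin that closes the ring, rose by 0.16 (limma adjusted p = 0.00351). Of cohesin, the ATPase arms SMC1A and SMC3 fell, by 0.28 and 0.18, and the kleisin RAD21 did not pass (-0.05, limma adjusted p = 0.36). Neither did SGOL1 (-0.09) nor the condensin subunit NCAPD2 (0.10, limma adjusted p = 0.0888), although NCAPD2 was called higher under 4 alternatives that kept all 3 replicates.

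Spindle proteins gave the deepest fall. HMMR, a microtubule-binding protein of spindle poles, had 3325, 3819.9 and 3307 normalized counts in ZC3H7A libraries and 8257, 7946 and 8109.7 in control libraries. No control value came near the ZC3H7A values, and the log2 change of -1.22 ± 0.05 (limma adjusted p = 6.92e-15) was the only one among the called members beyond 2-fold. Next to it, DLGAP5, a protein that stabilises kinetochore fibres, had 5142, 6037 and 5452 with ZC3H7A and 8685, 8457 and 8313 in the control (-0.62, limma adjusted p = 4.46e-10). ASPM, which acts at spindle poles, had a log2 change of -0.40 (limma adjusted p = 3.2e-08), and KIF11, the motor that pushes the poles apart, one of -0.17 (limma adjusted p = 0.0032). In this role 5 of 8 fell and only TPX2 rose, where 28.2% of all genes fell and 29.2% rose. TPX2, the spindle factor that activates AURKA, had 17854, 18899.6 and 17052 with ZC3H7A and 14608, 13857 and 13732 in the control, without overlap (0.35, limma adjusted p = 1.92e-06). NUSAP1, which bundles microtubules near chromosomes, fell by 0.22 (limma adjusted p = 0.000702). The motors KIF2C (0.08) and KIF4A (-0.07), which act on microtubule ends and chromosome arms, did not pass.

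Of the genes of the central spindle and cytokinesis, KIF23 and KIF20A rose while ANLN and ECT2 fell with ZC3H7A. KIF23, the motor subunit of centralspindlin, had 15946, 16524 and 16240.0 in ZC3H7A libraries, against 12364, 11747 and 12105 in control libraries. ANLN, the anillin scaffold of the contractile ring, had 6101, 7166 and 6361 with ZC3H7A, against 9359.9, 8953 and 9113 in the control. Neither gene's groups overlapped, with log2 changes of 0.43 (limma adjusted p = 9.88e-09) and -0.49 (limma adjusted p = 3.06e-08). KIF20A changed by 0.18 (limma adjusted p = 0.00294) and ECT2, the exchange factor that sets the division plane, by -0.32 (limma adjusted p = 1.81e-06). PRC1, which bundles microtubules of the central spindle, did not pass (-0.08). MKI67, the Ki-67 protein that coats mitotic chromosomes and marks dividing cells, fell by 0.19 (limma adjusted p = 0.0018).

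With ZC3H7B, rises and falls among these genes were close in number. In ZC3H7B cells 17 of the 50 rose, 14 fell and 19 did not pass, where limma called 54.3% of all genes, 28.9% higher and 25.4% lower. The median log2 change was 0.01 over the members and 0.04 over all genes tested. All 3 ZC3H7B libraries lay above or below all 3 control libraries for 33 members, against 61.1% of all genes. Scaling shifts the split here too, to 23 higher and 9 lower by total reads and to 27 and 10 with quantile scaling, both of which ended the calls of CCNA2, MAD2L1, NDC80 and PTTG1. ZC3H7A and ZC3H7B were compared with the same 3 control libraries, so their changes are given side by side and no overlap is drawn from them.

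The listed chromosomal passenger genes again rose in ZC3H7B cells, 3 of 3, where 28.9% of all genes rose. BIRC5 had 619, 543 and 669 normalized counts in ZC3H7B libraries and 238, 334 and 264 in control libraries, without overlap. Its log2 change of 1.14 ± 0.11 (limma adjusted p = 9.82e-09) was the only one beyond 2-fold among the called members. INCENP rose by 0.25 (limma adjusted p = 7.3e-05) and AURKB by 0.20 (limma adjusted p = 0.000988). Of the Ndc80 complex, SPC24 had 1905, 1757 and 1784 in ZC3H7B libraries (0.88, limma adjusted p = 1.14e-11) and SPC25 3553, 3298 and 3079 (-0.25, limma adjusted p = 0.000654). Both lay outside the control values given above, on opposite sides. NDC80 fell by 0.16 (limma adjusted p = 0.00975), and NUF2 did not pass (0.00, limma adjusted p = 0.98).

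CDK1 had 17851, 17932 and 15691 normalized counts in ZC3H7B libraries, all below the 3 control values, and fell by 0.31 ± 0.05 (limma adjusted p = 2.64e-05). AURKA, the largest rise in this role, had 4814, 4974 and 4537 with ZC3H7B and 3358, 3302 and 3209 in the control (0.54, limma adjusted p = 2.66e-09). WEE1 rose by 0.22 (limma adjusted p = 0.000312). CCNA2 fell by 0.14 (limma adjusted p = 0.0111), a call lost without control replicate 1. CCNB1, CCNB2, PLK1, CDC25B and CDC25C did not pass, with log2 changes of 0.04, 0.06, 0.01, 0.03 and -0.04. In the checkpoint MAD2L1 fell by 0.11 (limma adjusted p = 0.0462), a call that was lost without any 1 of 5 libraries and whose sign turned with quantile scaling (0.01), and BUB1 (-0.06), BUB1B (0.06) and BUB3 (-0.06) did not pass. ESPL1 had 7081, 7265 and 7441 with ZC3H7B, against 5569.8, 5324 and 5461 in the control, and CDC20 had 6097, 6282 and 5926 with ZC3H7B, against 5562, 5194 and 5217 in the control. Both genes rose without overlap of the groups, ESPL1 by 0.41 (limma adjusted p = 1.4e-08) and CDC20 by 0.20 (limma adjusted p = 0.000662). UBE2C rose by 0.19, and PTTG1 fell by 0.12 (limma adjusted p = 0.037), a call lost without any 1 of 5 libraries.

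HMMR again had the deepest fall, with 4397, 4268 and 4057 in ZC3H7B libraries, against 8257, 7946 and 8109.7 in control libraries (-0.93 ± 0.05, limma adjusted p = 5.18e-13). ANLN had 6150.4, 6588 and 6685 with ZC3H7B, against 9359.9, 8953 and 9113 in the control (-0.50, limma adjusted p = 2.27e-08). SMC4 had 17118, 17701 and 16643 with ZC3H7B, against 23382, 22298 and 22882 in the control (-0.41, limma adjusted p = 8.7e-08). In all of these the ZC3H7B libraries lay wholly below the control libraries. Smaller falls of ASPM (-0.31), ECT2 (-0.26) and DLGAP5 (-0.26) followed, each with non-overlapping groups. Among motors, KIF2C, which takes microtubules apart at centromeres, had 7057, 7325 and 6564 with ZC3H7B and 5632, 5543 and 5349 in the control (0.34, limma adjusted p = 3.14e-06). KIF20A, a motor of the central spindle, rose by 0.29 (limma adjusted p = 2.44e-05) and TPX2 by 0.40 (limma adjusted p = 2.9e-07). KIF11 (-0.10), KIF4A (0.09), KIF23 (0.09), NUSAP1 (0.04), PRC1 (-0.01) and MKI67 (0.02) did not pass.

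Condensin subunits parted with ZC3H7B as well. Both ATPase arms fell, SMC4 as above and SMC2 by 0.23 (limma adjusted p = 0.000222), while NCAPD2 rose by 0.22 (limma adjusted p = 0.000456) and NCAPH by 0.18 (limma adjusted p = 0.00148). NCAPG did not pass (-0.05, limma adjusted p = 0.372). Calls in cohesin lay close to the threshold. SMC1A fell by 0.12 (limma adjusted p = 0.0484) and SGOL1 rose by 0.14 (limma adjusted p = 0.0484), each a call lost without any 1 of 5 libraries, and SMC3 (-0.09) and RAD21 (-0.05) did not pass. At the outer kinetochore CENPF rose by 0.13 (limma adjusted p = 0.0186), a call lost without any 1 of 4 libraries, and CENPE did not pass (-0.04).

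When the overexpressing lines were compared with each other, more of the called members were lower than higher in ZC3H7A cells. In ZC3H7A cells 18 of the 50 were lower than in ZC3H7B cells and 5 were higher, while 27 did not pass, where limma called 36.6% of all genes, 18.4% higher and 18.2% lower. TMM and total-read scaling each gave 8 higher, against 20.7% and 18.9% of all genes, and leaving out 1 library gave 13 to 25 lower. The median log2 difference was -0.09 over the members and -0.01 over all genes. For 25 members the 3 libraries of one line lay wholly above or below those of the other, against 43.7% of all genes. SPC25 showed the widest gap, with 2061, 2400.3 and 2162 normalized counts in ZC3H7A libraries and 3553, 3298 and 3079 in ZC3H7B libraries (log2 difference -0.58, limma adjusted p = 1.24e-08). NDC80 had 3249.8, 3817 and 3409 with ZC3H7A and 4710.5, 4803 and 4523 with ZC3H7B (-0.42, limma adjusted p = 4.53e-07). The 2 lines did not overlap for either subunit. SMC4 (-0.46, limma adjusted p = 3.68e-08) and NCAPG (-0.42, limma adjusted p = 5.93e-08) of condensin were likewise lower in ZC3H7A cells. The other condensin arm, SMC2, was higher there, with 11869, 12228 and 11569.6 in ZC3H7A libraries and 10269, 10275 and 9254 in ZC3H7B libraries (0.26, limma adjusted p = 9.13e-05). KIF23 (0.34, limma adjusted p = 8.2e-07), CCNA2, the cyclin A2 of S phase and early mitosis (0.23, limma adjusted p = 0.000352), and MAD2L1 (0.19, limma adjusted p = 0.00174) were also higher in ZC3H7A cells. For the cyclin and MAD2L1 these differences set a change that did not pass with ZC3H7A beside a fall with ZC3H7B. The fifth gene higher in ZC3H7A cells was AURKB (0.14), lost without ZC3H7A replicate 2 or ZC3H7B replicate 3. Of the other 14 lower in ZC3H7A cells, the widest differences were those of TTK (-0.36), DLGAP5 (-0.36), HMMR (-0.29), NUSAP1 (-0.27) and KIF2C (-0.26), and the smallest that of ESPL1 (-0.11), a call lost without any 1 of 5 libraries.

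Another 107 mitotic genes, listed by role, were counted for setting. With ZC3H7A 27 rose and 46 fell, with ZC3H7B 44 rose and 33 fell, and between the lines 12 were higher and 39 lower in ZC3H7A cells. Of all genes, 29.2% rose and 28.2% fell with ZC3H7A, 28.9% rose and 25.4% fell with ZC3H7B, and 18.4% were higher and 18.2% lower in ZC3H7A than in ZC3H7B cells. MYBL2, a transcription factor that switches on mitotic genes, had 4317 ± 155 normalized counts with ZC3H7A and 5802 ± 211 with ZC3H7B, against 2721 ± 34.3 in the control (SD, n = 3 each). It rose by 0.67 with ZC3H7A (limma adjusted p = 1.71e-11) and 1.09 with ZC3H7B (limma adjusted p = 2.77e-15). ZWILCH, a subunit of the RZZ complex that recruits checkpoint proteins, had 3129 ± 49.8 with ZC3H7A and 2790.0 ± 25 with ZC3H7B, against 5677 ± 84.7 in the control. It fell by 0.86 with ZC3H7A (limma adjusted p = 8.51e-14) and 1.02 with ZC3H7B (limma adjusted p = 2.9e-15). Among the largest rises with ZC3H7A were also UBE2S, which extends ubiquitin chains for the anaphase-promoting complex (0.79), and PMF1 of the Mis12 complex (0.66). With ZC3H7B they were CDCA5, the sororin that keeps cohesin on chromosomes (0.79), and PMF1 (0.70). The largest falls beside ZWILCH were PDS5B, a cohesin regulator (-0.79), and CENPK of the inner kinetochore (-0.69) with ZC3H7A. With ZC3H7B they were CENPK (-0.83) and the cohesin subunit STAG2 (-0.75). In these sentences all changes passed the limma test.

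The median mitotic gene used more codons ending in A or T than the median gene tested. AT3, the percentage of codons ending in A or T without start and stop codons, had a median of 56.9% over the 50 members, from 21.0% in SPC24 to 72.9% in DLGAP5, against 41.1% over the 13378 genes tested that had a coding sequence. Members that fell with ZC3H7A had a median AT3 of 65.3%, those that did not pass 55.7% and those that rose 41.7%. With ZC3H7B these medians were 66.0%, 59.9% and 42.1%. Of the 31 members in the highest of 3 equal classes of AT3, 18 fell and 4 rose with ZC3H7A, and 13 fell and 5 rose with ZC3H7B. In that class 47.2% of all genes fell and 20.8% rose with ZC3H7A, and 46.1% fell and 19.7% rose with ZC3H7B. Across the 50 members the log2 change and AT3 gave Pearson's r = -0.58 with ZC3H7A and -0.60 with ZC3H7B (Spearman's rho -0.64 and -0.65). Over all 13378 genes r was -0.20 and -0.24. Both relations rest on the same control libraries, and among the members AT3 and GC content of the coding sequence are nearly the same measure (r = -0.96), so the 2 cannot be told apart. Members also departed from this order. KIF23 and AURKA rose with ZC3H7A at an AT3 of 62.5% and 61.4%, and SMC1A and CDC25B, a phosphatase that activates CDK1, fell at 35.3% and 26.5%. Between the overexpressing lines r was -0.19 over the members and 0.02 over all genes.

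**Figure D4:**
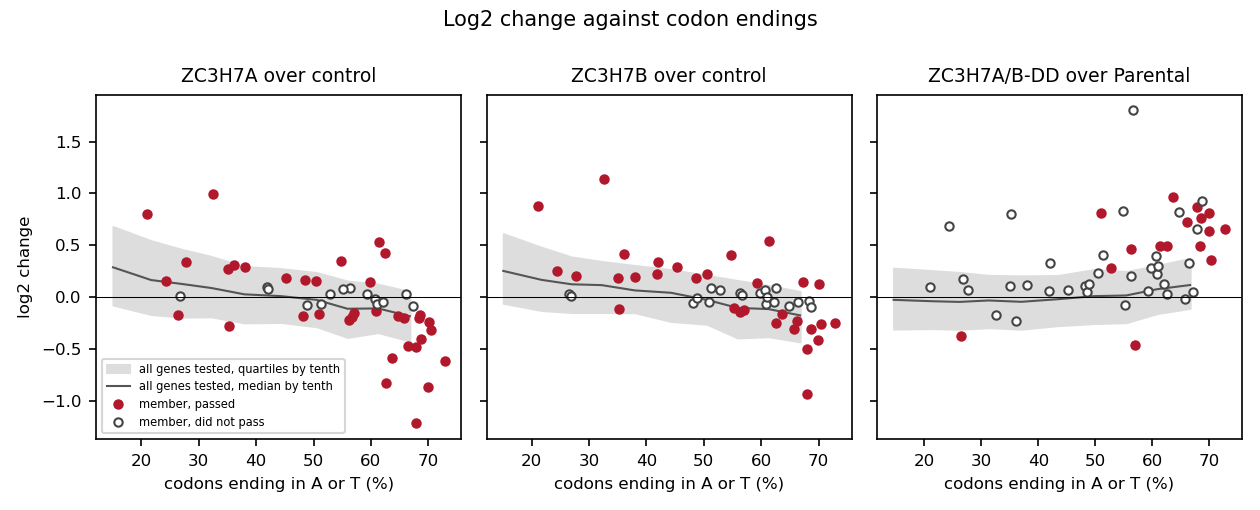
Log2 change of normalized count plus 1 on the vertical axis against AT3, in percent of codons, on the horizontal axis; points are the 50 members and the line with its band gives the median and quartiles of all genes in 10 classes of AT3. Members with high AT3 lie lower with ZC3H7A and ZC3H7B (Pearson's r -0.58 and -0.60) and higher in the libraries labelled ZC3H7A/B-DD (r 0.39).

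Promoters of mitotic genes are known for a pair of elements, the cell cycle homology region and the CCAAT box, bound by the DREAM and MuvB complexes and by NF-Y. RefSeq promoters (GRCh38.p14, 250 bases before to 50 after the start) were matched for 42 of 50 members by symbol and searched on both strands for TTTGAA and for CCAAT, whose sites can share an end letter only. TTTGAA was found in 29 of 42 (69.0%), against 18.2% of 27305 genes, and CCAAT in 31 of 42 (73.8%), against 39.7%. Both were found in 21 of 42 (50%), against 7.26%. The 100 bases before the start are shown for HMMR, which fell in both overexpressing lines, KIF23, which rose with ZC3H7A, and PLK1, which passed in neither, because members that share these letters had different calls. Capitals mark TTTGAA and CCAAT or their reverse complements.
HMMR (chr5:163460532-163460631, plus strand): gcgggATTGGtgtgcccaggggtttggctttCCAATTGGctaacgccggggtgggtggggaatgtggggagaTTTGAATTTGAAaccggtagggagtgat
KIF23 (chr15:69414249-69414348, plus strand): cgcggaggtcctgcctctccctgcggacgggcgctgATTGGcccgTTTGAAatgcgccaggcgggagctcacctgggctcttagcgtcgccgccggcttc
PLK1 (chr16:23678789-23678888, plus strand): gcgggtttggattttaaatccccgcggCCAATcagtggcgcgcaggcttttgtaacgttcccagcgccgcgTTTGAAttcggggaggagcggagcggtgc
A match is a description of letters and not a measured site.

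In the libraries labelled ZC3H7A/B-DD, mitotic genes that changed were mostly higher than in Parental. There 14 of the 50 rose, 2 fell and 34 did not pass, where limma called 24.5% of all 17092 genes tested, 11.0% higher and 13.5% lower. The median log2 change was 0.29 over the members and 0.02 over all genes. The 3 libraries labelled ZC3H7A/B-DD lay above all 3 Parental libraries for 20 members and below for 3, where 40.8% of all genes were separated in either direction. These numbers depend on single libraries. Parental replicate 3 was above both other Parental libraries for 35 of the 50 members (70%), against 32% of all genes. Without it 29 members rose and 2 fell, against 33.1% of all genes called, 15.7% higher and 17.4% lower, and all 16 calls were kept. The median was then 0.33. For 31 of the 50 members, Parental replicate 3 lay nearer the mean of the libraries labelled ZC3H7A/B-DD than that of Parental 1 and 2. Leaving it out widens the gap for such members, so the added calls are not separate support. Leaving out Parental replicate 2 left 5 members higher, where 4.54% of all genes were, and leaving out Parental replicate 1 left 8, against 6.35% of all genes. Without replicate 1 of the libraries labelled ZC3H7A/B-DD 6 were higher, against 7.79% of all genes. Precision weights gave 31 higher, against 21.3% of all genes, and a fit over all 15 libraries 28, against 15.7%.

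Among the members that passed the test, NDC80 of the outer kinetochore had the largest rise, and the arms of condensin were among the next. NDC80 had 5372, 4649 and 4529 normalized counts in the libraries labelled ZC3H7A/B-DD, against 2115, 2269 and 3178 in Parental. The groups did not overlap, although Parental replicate 3 was the nearest, and the log2 change was 0.96 ± 0.15 (limma adjusted p = 0.00229). SPC25 (0.49, limma adjusted p = 0.0132) and CENPE, a kinetochore motor (0.49, limma adjusted p = 0.00907), also rose, while NUF2 (0.30, limma adjusted p = 0.0634) and SPC24 (0.09) did not pass. The SPC25 call was lost without Parental replicate 2. SMC4 had 18326, 15493 and 14319 in the libraries labelled ZC3H7A/B-DD, against 7361, 8179 and 12418 in Parental (0.81, limma adjusted p = 0.0137). Its partner SMC2 had 12007, 10151 and 9382, against 5169, 5654 and 8724 in Parental (0.72, limma adjusted p = 0.0223). Neither gene's groups overlapped, but both calls were lost without Parental replicate 2 or without replicate 1 of the libraries labelled ZC3H7A/B-DD, and that of SMC2 in 2 more such fits.

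ANLN had 8603, 7289 and 7472 normalized counts in the libraries labelled ZC3H7A/B-DD and 3385, 4248 and 5349.8 in Parental (0.87, limma adjusted p = 0.00442). CDC25C, the phosphatase that activates CDK1 at mitotic entry, had 2749, 2801 and 2554 in the libraries labelled ZC3H7A/B-DD and 1310.4, 1426 and 1952 in Parental (0.81, limma adjusted p = 0.00381). DLGAP5 had 7932, 6654 and 6578 in the libraries labelled ZC3H7A/B-DD and 4193, 4361 and 4902 in Parental (0.65, limma adjusted p = 0.00283). None of these groups overlapped, and the calls of ANLN, CDC25C, DLGAP5 and NDC80 held without any 1 of the 6 libraries. KIF11 rose by 0.76 (limma adjusted p = 0.0132) and TTK, the Mps1 kinase that starts the checkpoint, by 0.63 (limma adjusted p = 0.034). The KIF11 call was lost without Parental replicate 2 or replicate 1 of the libraries labelled ZC3H7A/B-DD, and the TTK call without any 1 of 5 libraries. AURKA (0.50), NUSAP1 (0.46), ECT2 (0.35) and CCNB2 (0.28) completed the rises, and each of these calls was lost without any 1 of at least 4 libraries.

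The 2 falls were PTTG1 and CDC25B. PTTG1 had 5480.5, 5398 and 5523 normalized counts in the libraries labelled ZC3H7A/B-DD, against 7484, 8111 and 7062 in Parental (-0.46, limma adjusted p = 0.00529). CDC25B had 3180.5, 3399 and 3321 in the libraries labelled ZC3H7A/B-DD, against 4318, 4285 and 4293 in Parental (-0.38, limma adjusted p = 0.00759). For both, all 3 libraries labelled ZC3H7A/B-DD were below Parental, and the calls held without any 1 library. In mitotic entry and the checkpoint, CDC25C, AURKA, CCNB2 and TTK rose and CDC25B fell, as given above. CDK1 (-0.02), CCNB1 (0.28), PLK1 (0.17), AURKB (0.06), BUB1B (0.40) and MAD2L1 (-0.08) did not pass. Nor did CDC20 (0.11), ESPL1 (-0.23) and RAD21 (0.13). Without Parental replicate 3, 3 of these 9 passed and were higher, CCNB1 by 0.35, BUB1B by 0.70 and CDC20 by 0.25. In all 3 that library was above both other Parental libraries, so leaving it out widens the difference. No member gained a call without Parental replicate 1 or 2. BIRC5, the highest rise with either overexpressed protein, had 574, 862 and 445 in the libraries labelled ZC3H7A/B-DD and 782, 727 and 554 in Parental, which overlapped (-0.17, limma adjusted p = 0.614). HMMR, the deepest fall with either protein, had 5469.6, 4661 and 3868, against 2415, 2417 and 4291 in Parental, where replicate 3 overlapped with the libraries labelled ZC3H7A/B-DD (0.66, limma adjusted p = 0.0557). Without Parental replicate 3 its change was 0.94 and passed, with the Parental value nearest those libraries left out.

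MKI67 had the widest range of the 50 genes over these 6 libraries. It had 26799, 26790.3 and 12815 normalized counts in the libraries labelled ZC3H7A/B-DD, against 3156, 3139 and 21943 in Parental. Parental replicate 3 lay above replicate 3 of the libraries labelled ZC3H7A/B-DD, so the groups overlapped, and the log2 change of 1.80 did not pass (limma adjusted p = 0.0783). Without Parental replicate 3, the highest of the Parental values, the change was 2.73. TPX2 and SMC1A showed a similar split. TPX2 had 18157, 17540.4 and 14402 in the libraries labelled ZC3H7A/B-DD, against 6275, 7577 and 17272 in Parental, and SMC1A had 31855, 32332 and 30644, against 12497, 15220.5 and 31210.1 in Parental. In both genes Parental replicate 3 lay among the libraries labelled ZC3H7A/B-DD. Their changes of 0.83 (limma adjusted p = 0.0861) and 0.80 (limma adjusted p = 0.0666) did not pass. They were 1.27 and 1.20 without that library. TPX2 and SMC1A were chosen after their values were seen.

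**Figure D5:**
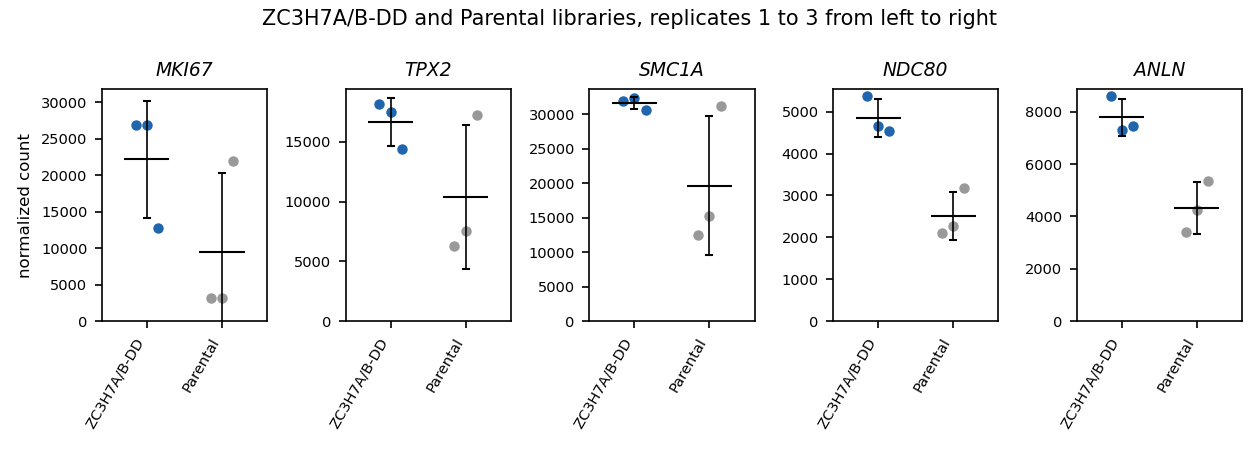
Normalized counts of 5 mitotic genes in the libraries labelled ZC3H7A/B-DD and in Parental libraries, replicates 1 to 3 from left to right, with bars for the mean ± SD and axes from 0. Parental replicate 3 lies near or among the libraries labelled ZC3H7A/B-DD for MKI67, TPX2 and SMC1A, and below them for NDC80 and ANLN.

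All 14 members that rose in the libraries labelled ZC3H7A/B-DD were in the highest class of AT3, with a median of 67.1%. That class held 33 of the 50 members here, and also 1 of the 2 that fell. Of all genes in that class 16.8% rose and 12.1% fell. Across the 50 members r between log2 change and AT3 was 0.39 (Spearman's rho 0.46), against 0.06 over 13551 genes, and 0.33 without Parental replicate 3. Log2 coding length gave r = 0.49 over the same members and 0.15 over all genes, and 0.545 over the members without Parental replicate 3. The points share libraries, and AT3 and length were themselves related over the members (r = 0.31). Of the other 107 mitotic genes 24 rose and 12 fell here, where 11.0% of all genes rose and 13.5% fell. The number higher was 8 without Parental replicate 2, 10 without Parental replicate 1 or replicate 1 labelled ZC3H7A/B-DD, 13 without replicate 3 labelled ZC3H7A/B-DD (5.88% of all genes) and 37 without Parental replicate 3. CKAP2, a spindle-associated protein, had 15085 ± 2045 in the libraries labelled ZC3H7A/B-DD and 6872 ± 2044 in Parental (1.17, limma adjusted p = 0.00286). SGOL2, a paralog of SGOL1 (1.25, limma adjusted p = 0.00643), and CENPQ of the inner kinetochore (0.80, limma adjusted p = 0.000849) were the other large rises. MIS18A, which helps load the centromeric histone CENP-A, had 936 ± 66.6 in the libraries labelled ZC3H7A/B-DD and 1710.2 ± 170.1 in Parental (-0.87, limma adjusted p = 0.00061). ANAPC10 of the anaphase-promoting complex (-0.76, limma adjusted p = 0.00982) and NSL1 of the Mis12 complex (-0.66, limma adjusted p = 0.00117) also fell.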

How the data were processed

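The authors deposited 1 table of normalized counts, a signal for each gene name and library, per the file headers. Tools in the submitters' processing notes are STAR, Bowtie, HTSeq, cutadapt and DESeq2, with hg19 and hg38 as builds and no versions. Which build was used, which footprint lengths were kept and whether strand entered the counting is not given there. Each library's values were whole multiples of its smallest step (100%, tolerance 0.01 reads), so reads could be recovered. The main test was limma 3.58.1 (R 4.3.3, eBayes with trend) on log2(value + 1). Genes had to reach 10 in 3 or more libraries, p-values were adjusted by Benjamini-Hochberg over all genes, and the threshold was 0.05. One fit with 3 contrasts served the 9 Flag/HA libraries. The remaining 6, made by another lysis and library protocol, had their own fit. Chi-square per degree of freedom between replicates was 1.65 to 6.06 among Flag/HA libraries and 8.72 to 87.9 among the remaining ones. The fit was checked on simulated counts with known changes. Alternatives were edgeR 4.0.16 and DESeq2 1.42.0 on the recovered reads, other pseudocounts, filters, scalings, precision weights, other sets of libraries in the fit, a replicate block, and leaving out each library.

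Members, roles, the 107 other mitotic genes and the tests were chosen with earlier results of these data known. Named with values in each comparison with a control were the called members with the largest log2 changes, at most 8 in each direction and at a mean of 20 or more, and 12 fixed genes from CDK1 to MKI67 whether called or not. Between the overexpressing lines up to 4 per direction were named, and of the other mitotic genes up to 3. Coding sequences are the longest of GENCODE 29, found for all 50 members, 1 by an older symbol.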

Additional observations from a re-analysis of the deposited data

Results flagged for a closer look

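TTK, the checkpoint kinase Mps1, had opposite changes with the 2 overexpressed proteins and a tested difference between them. It had 5695, 6468 and 5812 normalized counts in ZC3H7A libraries and 7838, 7917 and 7359 in ZC3H7B libraries, against 7221, 6927 and 7085 in control libraries. Relative to the control it fell by 0.24 with ZC3H7A (limma adjusted p = 0.000173) and rose by 0.12 with ZC3H7B (limma adjusted p = 0.0385). The direct difference between ZC3H7A and ZC3H7B was -0.364 on the log2 scale (limma adjusted p = 1.95e-06), with all 3 ZC3H7A libraries below all 3 ZC3H7B libraries. The rise with ZC3H7B was not called with TMM scaling, without the filter on low values, or without control replicate 2, control replicate 3, ZC3H7B replicate 1 or ZC3H7B replicate 2. TTK was the 1 member for which both changes against the control passed in opposite directions. Its cause was not tested.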

How the results depend on the processing

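Calls with ZC3H7A held well: edgeR, DESeq2, both other pseudocounts, both other filters, precision weights, TMM scaling and a fit of only the 2 groups each kept all 36 called members. Total-read scaling kept 33 and quantile scaling 32. With ZC3H7B these settings kept 26 to 31 of 31, and between the overexpressing lines 20 to 23 of 23. For the libraries labelled ZC3H7A/B-DD they kept 13 to 16 of 16. Calls lost under them were those of BUB1, CDC25B, CDC25C, NUSAP1 and PTTG1 with ZC3H7A and of CCNA2, MAD2L1, NDC80, PTTG1, SGOL1, SMC1A and TTK with ZC3H7B. They were those of BUB3, ESPL1 and NCAPD2 between the lines and of CCNB2, ECT2 and NUSAP1 for the libraries labelled ZC3H7A/B-DD.

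Quantile scaling raised the members higher with ZC3H7A to 23 and with ZC3H7B to 27, and turned BUB1B with ZC3H7A (0.1065), MAD2L1 with ZC3H7B (0.0104) and PRC1 with ZC3H7B (0.076) positive. Total-read scaling left 9 members lower with ZC3H7B. Between the overexpressing lines TMM and total-read scaling each gave 8 higher. For the libraries labelled ZC3H7A/B-DD, 1 fit of all 15 libraries gave 28 members and 43 other mitotic genes higher, and precision weights 31 and 40. The cause was not tested.

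Leaving out 1 library at a time gave 13 to 16 members higher and 20 to 22 lower with ZC3H7A, 14 to 21 and 10 to 13 with ZC3H7B, and 4 to 6 and 13 to 25 between the lines. It gave 5 to 29 higher and 2 lower in every fit for the libraries labelled ZC3H7A/B-DD. For the other mitotic genes it gave 21 to 27 and 40 to 47 with ZC3H7A, 37 to 48 and 30 to 33 with ZC3H7B, 10 to 13 and 34 to 45 between the lines, and 8 to 37 and 8 to 16 for the libraries labelled ZC3H7A/B-DD.

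Same-numbered libraries showed little shared deviation (correlations of -0.133 to 0.0922), so no pairing was detected, though 3 libraries per group cannot exclude it. In the comparisons 2 of 6, 2 of 6, 4 of 6 and 2 of 6 libraries correlated best with their own number. The 4 of 6 was between the overexpressing lines. With a replicate block members split 15 higher and 22 lower with ZC3H7A, 17 and 14 with ZC3H7B and 5 and 18 between the lines. For the libraries labelled ZC3H7A/B-DD 10 and 2 remained called, and 12 other mitotic genes were higher. At the lowest, 188 reads stood behind a BIRC5 value and 742 behind one of SPC24, so counting error is widest there; without molecular identifiers it covers counting alone.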

Other observations

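Among the 107 other mitotic genes, counts by role were as follows, with no test between roles. Limma called 57.5% of all genes with ZC3H7A, 54.3% with ZC3H7B and 24.5% for the libraries labelled ZC3H7A/B-DD. Of 16 other outer kinetochore and checkpoint genes, all 16 passed the limma test with ZC3H7A, 6 higher and 10 lower. Of 16 transcription and other regulators of mitotic genes, 8 rose and 4 fell with ZC3H7A, and 9 rose and 3 fell with ZC3H7B. Inner kinetochore genes, 17 in all, gave 2 rises and 8 falls with ZC3H7A, and 6 rises and 5 falls with ZC3H7B. In the libraries labelled ZC3H7A/B-DD they gave 5 rises and 6 falls against Parental, while 26 other motors and spindle proteins gave 5 rises and no fall.

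MIS18A, chosen after its values were seen, fell by 0.25 on the log2 scale with ZC3H7A (limma adjusted p = 0.000234) and rose by 0.30 with ZC3H7B (limma adjusted p = 3.13e-05), relative to the same control. It averaged 1898 ± 54.1 normalized counts in ZC3H7A cells and 2784 ± 174 in ZC3H7B cells, against 2258 ± 48.4 in control cells (SD, n = 3 each), and the lines differed by -0.55 (limma adjusted p = 7.64e-09).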
